A study of Mus musculus with 24 samples.

Results

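Immune checkpoint receptors and ligands were followed in mouse spinal cord after transfer of myelin-reactive T helper cells. The 9 genes were Pdcd1, Ctla4, Lag3, Havcr2 and Tigit, which encode receptors, and Cd274, Pdcd1lg2, Cd80 and Cd86, which encode ligands. A gene was taken where a probe set of the array carries its symbol and no other, and 8 of the 9 were measured by that rule, through 12 probe sets. Tigit was not analysed here. The 8 genes were set against 17097 genes chosen in the same way.

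Expression came from 24 arrays, each with spinal cord RNA of 1 female mouse. The groups were 4 Act1 KO recipients of Th17 cells, 5 wild-type recipients of Th17 cells, 5 wild-type recipients of Th1 cells, 5 naive Act1 KO mice and 5 naive wild-type mice. Act1, encoded by Traf3ip2, is an adaptor protein that the receptor for IL-17 needs to signal. By the methods, mice were 8 to 12 weeks old, and recipients were given 500 rad and then, 4 h later, 30000000 cells reactive to MOG35-55, a myelin oligodendrocyte glycoprotein peptide. Donors had been immunized 10 days before their cells were taken, and culture with the peptide lasted 5 days. Cultures for Th17 cells held IL-23, and those for Th1 cells held IL-12 with an antibody against IL-23p19. Recipients were killed 12 days after transfer, at the onset of symptoms by the labels and at the peak of disease by the text of the study. Naive mice were left untreated, so radiation, transfer and disease went together and cannot be told apart. Act1 KO mice received Th17 cells only, and neither the donors' genotype nor the Act1 allele is described in the sources used here.

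Traf3ip2 stood at 5.69 ± 0.10 on the log2 scale in Act1 KO Th17 recipients and 5.38 ± 0.18 in wild-type Th17 recipients, and at 5.56 ± 0.24 in naive Act1 KO mice and 4.29 ± 0.20 in naive wild-type mice (SD, n = 4, 5, 5 and 5). The probe set was thus higher under the Act1 KO label and cannot check it. Array medians lay between 3.46 and 3.57, and the values carry no calls of presence or absence. A group mean under these medians is near background, so a fold over such a group may be understated. The folds given are estimates and not bounds. On the first principal component, which held 82.8% of the variance, Th1 recipients 4 and 5 stood apart from the other 3, so differences between Th17 and Th1 recipients are also given without them where that ends or makes a call or moves the value by over 1.5 times.

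Checkpoint receptors restrain lymphocytes after activation. PD-1, encoded by Pdcd1, sits on activated T cells and binds PD-L1, encoded by Cd274, and PD-L2, encoded by Pdcd1lg2. CTLA-4 competes with the costimulatory receptor CD28 for CD80 and CD86 on antigen-presenting cells, LAG-3 binds MHC class II, and TIM-3, encoded by Havcr2, is found on Th1 cells and on myeloid cells. In experimental autoimmune encephalomyelitis (EAE), the disease modelled here, inhibitory receptors such as PD-1 and CTLA-4 are known to limit tissue injury. This does not extend to CD80 and CD86, which also bind the costimulatory CD28. PD-L1 is a classical target of IFN-γ on myeloid and resident cells.

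The promoters of Cd274 and Ctla4 are shown because a short interferon motif occurs in both, and because these genes were called in opposite directions between Th17 and Th1 recipients. Promoters of 7 of the 9 genes were found in the RefSeq table of GRCm38.p6, each from 250 bases before to 50 after the start. They were searched on both strands for GAAANNGAA, the core of an interferon-stimulated response element (ISRE). Capitals mark the match.
Cd274 (chr19:29367188-29367487, + strand): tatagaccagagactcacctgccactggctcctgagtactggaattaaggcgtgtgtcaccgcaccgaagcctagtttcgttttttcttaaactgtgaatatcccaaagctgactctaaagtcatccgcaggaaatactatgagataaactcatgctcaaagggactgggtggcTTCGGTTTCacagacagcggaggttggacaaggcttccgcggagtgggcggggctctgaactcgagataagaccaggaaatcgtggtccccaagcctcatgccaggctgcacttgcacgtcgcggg
Ctla4 (chr1:60908775-60909074, + strand): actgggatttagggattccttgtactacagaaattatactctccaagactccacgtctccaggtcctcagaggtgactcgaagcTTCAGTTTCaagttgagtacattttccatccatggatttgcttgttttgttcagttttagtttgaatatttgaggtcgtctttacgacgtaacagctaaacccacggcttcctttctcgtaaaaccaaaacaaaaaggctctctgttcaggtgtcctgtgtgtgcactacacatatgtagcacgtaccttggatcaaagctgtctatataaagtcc
The ISRE core lay on the minus strand in both promoters, with its first base at −76 in Cd274 and −166 in Ctla4. In the promoters of Pdcd1, Havcr2, Tigit, Pdcd1lg2 and Cd80 it was not matched. Of all 32851 promoters in the table, 8.56% held the ISRE core, so these matches are a description only. Cd274 and Pdcd1lg2 are neighbours on chromosome 19, Pdcd1 and Ctla4 lie on chromosome 1, and Cd80, Cd86 and Tigit on chromosome 16.

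In wild-type mice, transfer of either cell type went with higher checkpoint expression in the cord. In Th17 recipients 7 of the 8 genes were higher than in naive wild-type mice and 0 lower, and in Th1 recipients 8 of 8 were higher (limma, adjusted p under 0.05). Of all genes, 43.5% were called between Th17 recipients and naive mice and 18.0% were called higher. Between Th1 recipients and naive mice these shares were 40.8% and 16.7%. The shares depend on scaling: with arrays centred on their medians 78.0% of all genes were called for Th17 recipients, 12.4% higher and 65.6% lower, and with arrays centred on ribosomal protein genes 87.1%, 9.97% higher and 77.1% lower, beside 18.0% higher and 25.5% lower as deposited. Of the 8 genes 7 and 6 were then called higher and 0 lower. For Th1 recipients these scalings called 11.6% and 8.58% of all genes higher and 66.1% and 80.6% lower, beside 24.1% lower as deposited, and 6 of the 8 genes higher in both. Both comparisons use the same naive wild-type mice. The groups did not overlap for 7 of 8 genes in either comparison, against 35.0% of all genes for Th17 and 33.6% for Th1 recipients. The median log2 difference was 0.93 for the receptors and 1.99 for the ligands in Th17 recipients, and 1.34 and 2.14 in Th1 recipients, beside −0.05 in Th17 and −0.06 in Th1 recipients over all genes. Leaving out Th1 recipients 4 and 5 also gave 8 of 8. Of 6 T cell markers 6 were called higher in either kind of recipient, with a mean between 5.92 and 6.16 in Th17 and between 5.59 and 5.71 in Th1 recipients, against 2.91 to 3.03 in naive wild-type mice. Of 8 monocyte and macrophage markers 8 were called higher, with a mean between 7.92 and 8.28 in Th17 and between 7.51 and 7.86 in Th1 recipients, against 3.24 to 3.33 in naive wild-type mice, and the part of these cells was not tested. The arrays read whole cord, in which more cells of a type and more RNA per cell cannot be told apart.

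**Figure D1:**
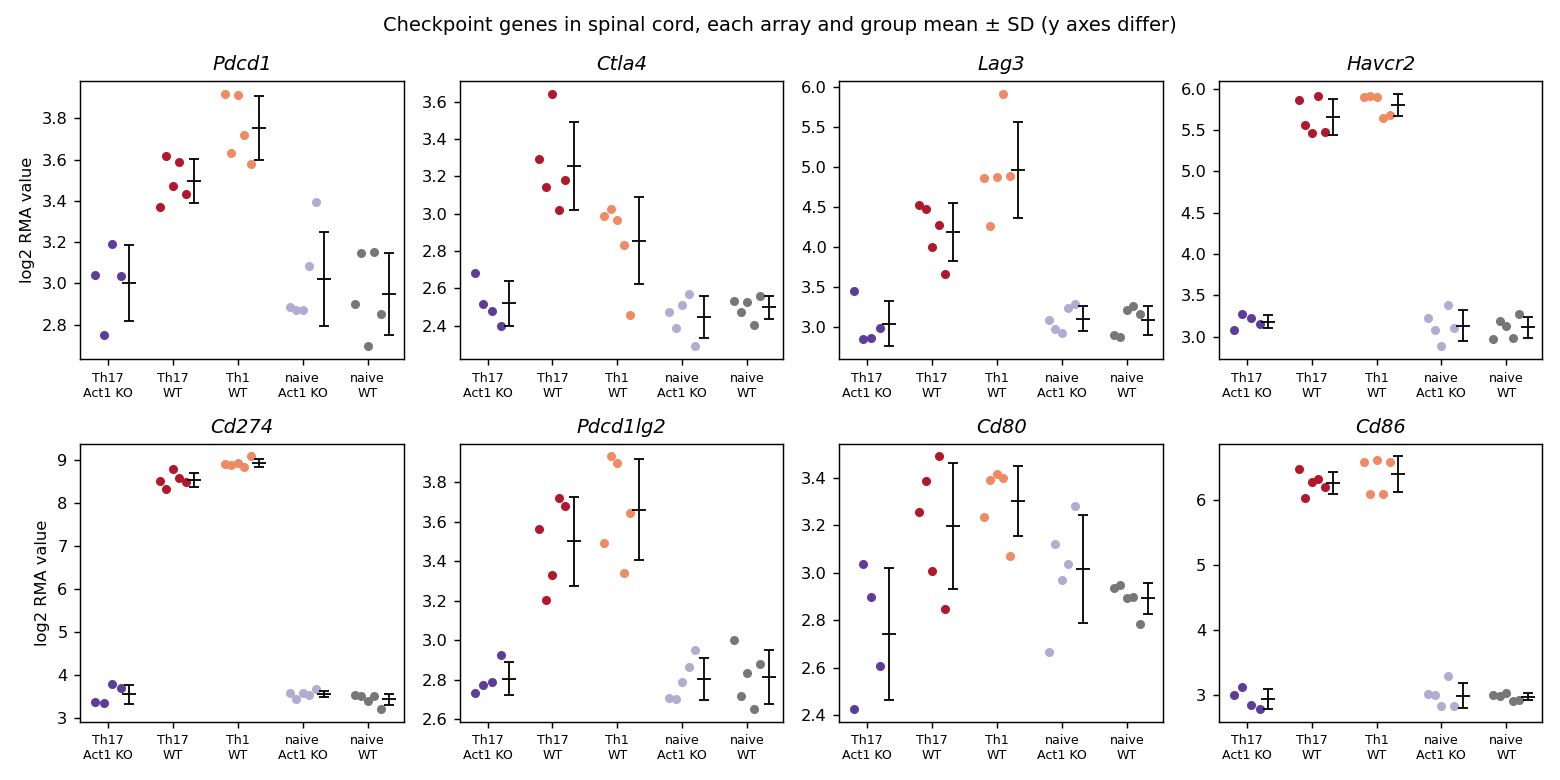
Log2 RMA values of the 8 measured checkpoint genes in the spinal cord, in 1 panel per gene with its own y axis, by group along the x axis. Points are single arrays and bars show the mean and SD; Cd274 stands at 8.53 ± 0.17 in wild-type Th17 recipients and 3.55 ± 0.22 in Act1 KO Th17 recipients.

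Cd274 was far higher in wild-type recipients than in naive mice. It stood at 8.51, 8.32, 8.78, 8.57 and 8.48 in wild-type Th17 recipients and at 8.89, 8.87, 8.92, 8.82 and 9.08 in Th1 recipients, against 3.54, 3.51, 3.39, 3.51 and 3.21 in naive wild-type mice. Every recipient lay far above every naive mouse, and every Th1 recipient lay above every Th17 recipient. The log2 difference from naive mice was 5.10 for Th17 recipients (standard error 0.09, limma adjusted p = 9.75e-25), or 34.3-fold. For Th1 recipients it was 5.49 (standard error 0.09, limma adjusted p = 2.36e-25), or 44.8-fold. Over the alternatives fitted it ranged from 4.69 to 5.15 for Th17 and from 5.01 to 5.54 for Th1 recipients. Both values held their call in every alternative fitted. A filter on dim genes, which Cd274 passed through wild-type recipients alone, is among these and supports nothing.

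Cd86, a costimulatory ligand carried mainly by activated antigen-presenting cells, was also higher. It stood at 6.47, 6.03, 6.28, 6.32 and 6.19 in wild-type Th17 recipients and at 6.58, 6.09, 6.62, 6.09 and 6.59 in Th1 recipients, against 3.00, 2.99, 3.03, 2.90 and 2.92 in naive wild-type mice. Recipients of both kinds overlapped each other and lay above all naive mice. The difference was 3.29 in Th17 recipients (standard error 0.11, limma adjusted p = 5.11e-19), or 9.80-fold. In Th1 recipients it was 3.43 (standard error 0.11, limma adjusted p = 2.28e-19), or 10.7-fold. The lowest differences among the alternatives fitted were 2.65 for Th17 and 2.82 for Th1 recipients. The other Cd86 probe set gave 2.01 for Th17 and 2.22 for Th1 recipients, and on it too every recipient lay above every naive mouse.

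Cd80, the second ligand of CD28 and CTLA-4, stayed near background. Its values were 3.26, 3.39, 3.01, 3.49 and 2.85 in wild-type Th17 recipients and 3.24, 3.39, 3.42, 3.40 and 3.07 in Th1 recipients, against 2.94, 2.95, 2.90, 2.90 and 2.78 in naive wild-type mice. Th17 recipients overlapped naive mice and Th1 recipients did not. The difference of 0.31 in Th17 recipients missed the threshold (standard error 0.13, limma adjusted p = 0.0504) and passed in 10 of 26 alternatives, among them those without Th17 recipient 3 (0.35, limma adjusted p = 0.0350) or 5 (0.39, limma adjusted p = 0.0119), while that of 0.41 in Th1 recipients passed (standard error 0.13, limma adjusted p = 0.00947). The other 3 probe sets of Cd80 gave 0.24, −0.16 and −0.002 for Th17 recipients and 0.30, −0.20 and −0.06 for Th1 recipients, so the direction depends on the probe set. The Cd80 call of Th1 recipients was lost when all probe sets of a gene were averaged (0.11) and with median centring (0.16), and with ribosomal centring, in which arrays are set to the level of ribosomal protein genes, the difference was −0.063. With the same centring it was −0.11 in Th17 recipients.

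**Figure D2:**
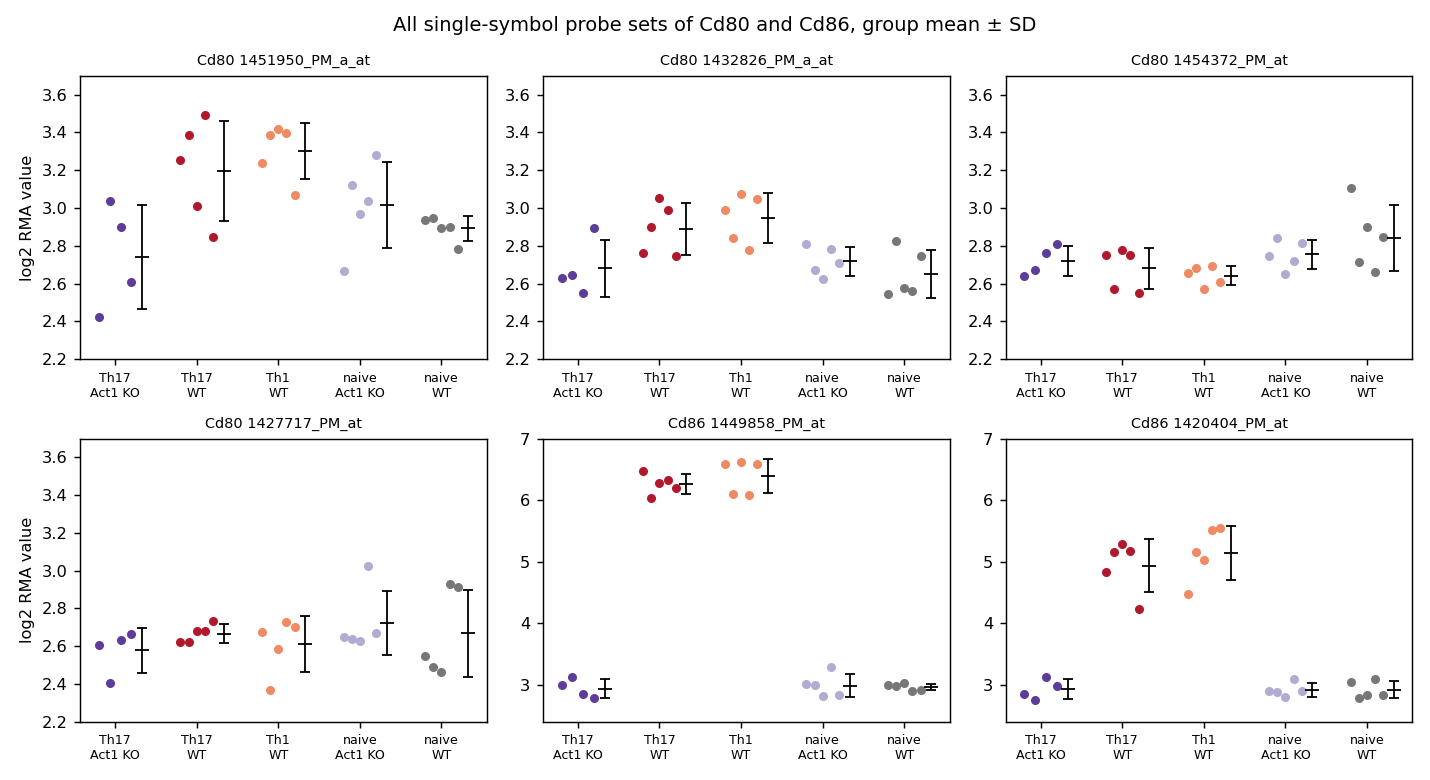
Log2 RMA values of the 4 probe sets of Cd80 and the 2 of Cd86, by group along the x axis, with points for arrays and bars for mean and SD. Both Cd86 probe sets rise in wild-type recipients, with differences of 3.29 and 2.01 for Th17 cells, whereas those of Cd80 range from −0.16 to 0.31.

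Pdcd1lg2, the second ligand of PD-1, lay near the array medians in recipients. It stood at 3.56, 3.21, 3.33, 3.72 and 3.68 in wild-type Th17 recipients and at 3.49, 3.93, 3.90, 3.34 and 3.64 in Th1 recipients, against 3.00, 2.72, 2.83, 2.65 and 2.88 in naive wild-type mice. Both sets of recipients lay above the naive mice and overlapped each other. The differences were 0.68 for Th17 and 0.84 for Th1 recipients (standard error 0.11 each, limma adjusted p = 9.54e-06 and 5.17e-07).

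Of the receptors, Havcr2 was clearly above naive levels in recipients. It stood at 5.86, 5.56, 5.47, 5.92 and 5.47 in wild-type Th17 recipients and at 5.90, 5.92, 5.90, 5.65 and 5.68 in Th1 recipients, against 2.98, 3.19, 3.13, 2.98 and 3.28 in naive wild-type mice. Recipients of both kinds overlapped and were clear of naive mice. The difference was 2.55 for Th17 recipients (standard error 0.10, limma adjusted p = 1.49e-17), or 5.84-fold. For Th1 recipients it was 2.70 (standard error 0.10, limma adjusted p = 4.49e-18), or 6.49-fold. The lowest differences among the alternatives fitted were 2.13 for Th17 and 2.23 for Th1 recipients.

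Lag3 varied among recipients. It stood at 4.52, 4.47, 4.00, 4.27 and 3.65 in wild-type Th17 recipients and at 4.86, 4.25, 4.87, 5.91 and 4.88 in Th1 recipients, against 2.89, 2.87, 3.21, 3.26 and 3.15 in naive wild-type mice. Th1 recipient 4 was the highest and Th17 recipient 5 the lowest of the recipients. The differences were 1.11 for Th17 and 1.88 for Th1 recipients (standard error 0.20 each, limma adjusted p = 5.46e-05 and 2.16e-08).

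Pdcd1 and Ctla4, the receptors targeted most often in cancer therapy, were dim. Pdcd1 stood at 3.37, 3.62, 3.47, 3.59 and 3.43 in wild-type Th17 recipients and at 3.92, 3.63, 3.91, 3.72 and 3.58 in Th1 recipients, against 2.90, 3.15, 2.70, 3.15 and 2.85 in naive wild-type mice. Recipients of both kinds lay above all naive wild-type mice. The differences of 0.55 in Th17 and 0.80 in Th1 recipients both passed (limma adjusted p = 0.000181 and 1.20e-06), the value of Th17 recipients except with ribosomal centring (0.13, limma adjusted p = 0.351). Ctla4 stood at 3.30, 3.15, 3.64, 3.02 and 3.18 in wild-type Th17 recipients and at 2.99, 3.02, 2.97, 2.83 and 2.46 in Th1 recipients, against 2.53, 2.48, 2.53, 2.41 and 2.56 in naive wild-type mice. Every Th17 recipient was above every naive mouse, and Th1 recipient 5 was within the naive range. The difference of Ctla4 was 0.76 for Th17 recipients (limma adjusted p = 1.30e-06) and 0.35 for Th1 recipients (limma adjusted p = 0.00821). The call of Th1 recipients was lost with median centring (0.11, adjusted p = 0.353 by limma), with the plate row as a factor (0.26, adjusted p = 0.0886) and under an exact rank test (Mann-Whitney, unadjusted p = 0.0952), and the difference turned to −0.12 with ribosomal centring.

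**Figure D3:**
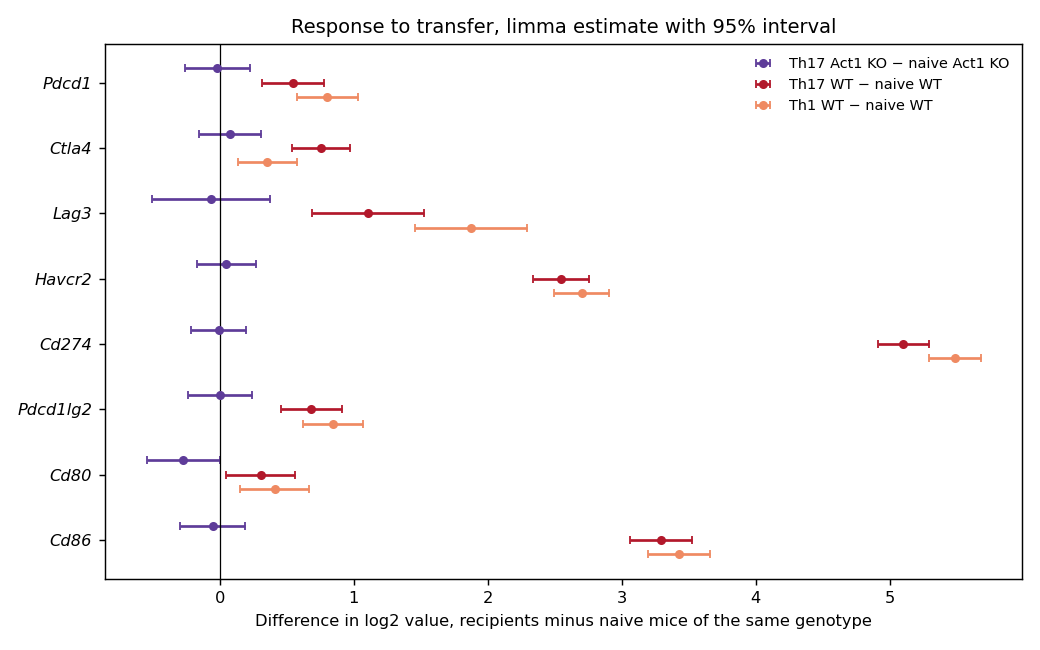
Differences in log2 value between recipients and naive mice of the same genotype on the x axis, for the 8 genes down the page, with 95% intervals from limma. Wild-type Th17 and Th1 recipients lie right of 0, up to 5.10 and 5.49 for Cd274, and Act1 KO Th17 recipients lie at or near 0.

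Which of the genes separate the 2 cell types was asked by comparing Th17 with Th1 recipients, where 3.00% of all genes were called. In Th17 recipients Cd274 was lower, with a log2 difference of −0.39 (standard error 0.09, limma adjusted p = 0.0178), as was Lag3 (−0.77, standard error 0.20, limma adjusted p = 0.0322), and Ctla4 was higher (0.40, standard error 0.11, limma adjusted p = 0.0330). Only for Cd274 did the arrays not overlap, as for 3.29% of all genes. Plate positions were read from the sample titles. Rows B, D and E hold arrays of both groups, and Cd274 differed by −0.41, −0.30 and −0.57 in them, Lag3 by −0.34, −0.88 and −0.39, and Ctla4 by 0.33, 1.19 and 0.16. With the plate row as a factor in the fit, Lag3 was no longer called (−0.62, limma adjusted p = 0.157). Th1 arrays share no plate column with another group, so column and group cannot be told apart.

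These 3 calls depended on single arrays and on the setting. Of the alternatives fitted, 19 of 27 kept that of Cd274, 15 of 27 that of Lag3 and 18 of 26 that of Ctla4, with no change of sign. Without Th1 recipients 4 and 5 none passed, at −0.36 for Cd274 (limma adjusted p = 0.108), −0.48 for Lag3 (limma adjusted p = 0.279) and 0.26 for Ctla4 (limma adjusted p = 0.366). The call of Cd274 was also lost without Th17 recipient 2 (−0.33) or Th1 recipient 5 (−0.35). That of Lag3 was lost without Th17 recipient 3 (−0.73), 4 (−0.79) or 5 (−0.64), or Th1 recipient 4 (−0.53) or 5 (−0.79). That of Ctla4 was lost without Th17 recipient 1 (0.39) or 3 (0.31), or Th1 recipient 4 (0.40) or 5 (0.30). When the fit held these groups alone limma called 0 of the 8. The methods' t-test and the exact Mann-Whitney test called 0 after adjustment, and 4 and 3 at an unadjusted p under 0.05. Of all 17097 genes these tests called 69 and 0 after adjustment, and 1843 and 1406 before it, in the same order. The adjusted 0 of the first test thus says little about these 8. The adjusted Mann-Whitney test called 0 of all genes, so its 0 says nothing about these 8. It is among the alternatives counted above. Pdcd1 stood at −0.26 (95% interval −0.49 to −0.03, limma adjusted p = 0.313), Havcr2 at −0.15 (−0.36 to 0.06), Pdcd1lg2 at −0.16 (−0.39 to 0.07), Cd86 at −0.13 (−0.36 to 0.10) and Cd80 at −0.10 (−0.36 to 0.15), and none of these was called.

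Markers of infiltrating cells differed between the same recipients. The mean of 6 T cell markers was 6.03 ± 0.11 in Th17 and 5.65 ± 0.05 in Th1 recipients, and that of 8 monocyte and macrophage markers was 8.07 ± 0.14 in Th17 and 7.66 ± 0.16 in Th1 recipients (SD, n = 5 each). Cd2, Cd4 and Cd247 were called higher in Th17 recipients, by 0.68, 0.66 and 0.49, whereas Cd3e, Cd3d and Cd3g were not. Of the monocyte and macrophage markers 5 of 8 were higher, among them Plac8 (1.34), Ccr2 (0.74) and Cd14 (0.58). Without Th1 recipients 4 and 5, 3 of the T cell and 2 of the monocyte and macrophage markers were called, and Cd14 stood at 0.28 and was not. Cd14 was also not called without any one of Th17 recipients 2, 3 and 4 (0.57, 0.56 and 0.58) or Th1 recipients 4 and 5 (0.46 and 0.48). The CD8 genes Cd8a and Cd8b1 stood at −0.46 and −0.57 and were not called. Without Th1 recipients 4 and 5 both were called lower in Th17 recipients, Cd8a by −1.13 and Cd8b1 by −1.05 (limma adjusted p = 5.81e-07 and 0.00347), and without Th1 recipient 4 alone by −0.80 and −0.89. In Th1 recipient 4, the highest for Lag3, Cd8a was the lowest of the Th1 recipients at 3.45. The part of these markers in the differences of the checkpoint genes was not tested.

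Levels were also set against the markers of the same array, subtracting the T cell mean for receptors and the monocyte and macrophage mean for ligands. These marker means were 0.37 and 0.41 higher in Th17 recipients, so a gene with equal levels per tissue, or a probe set near background, has a value near −0.37 or −0.41 on this scale. The values were −1.15 for Lag3, −0.63 for Pdcd1, −0.53 for Havcr2 and 0.03 for Ctla4, and −0.79 for Cd274, −0.57 for Pdcd1lg2, −0.54 for Cd86 and −0.51 for Cd80. An exact permutation test against 0 passed 0.05 for 7 of the 8, and because its null of 0 is not that of a gene with equal levels per tissue, no difference of a gene is read from it. Against Cd3e, Cd3d and Cd3g alone Ctla4 stood at 0.27 and Havcr2 at −0.29.

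**Figure D4:**
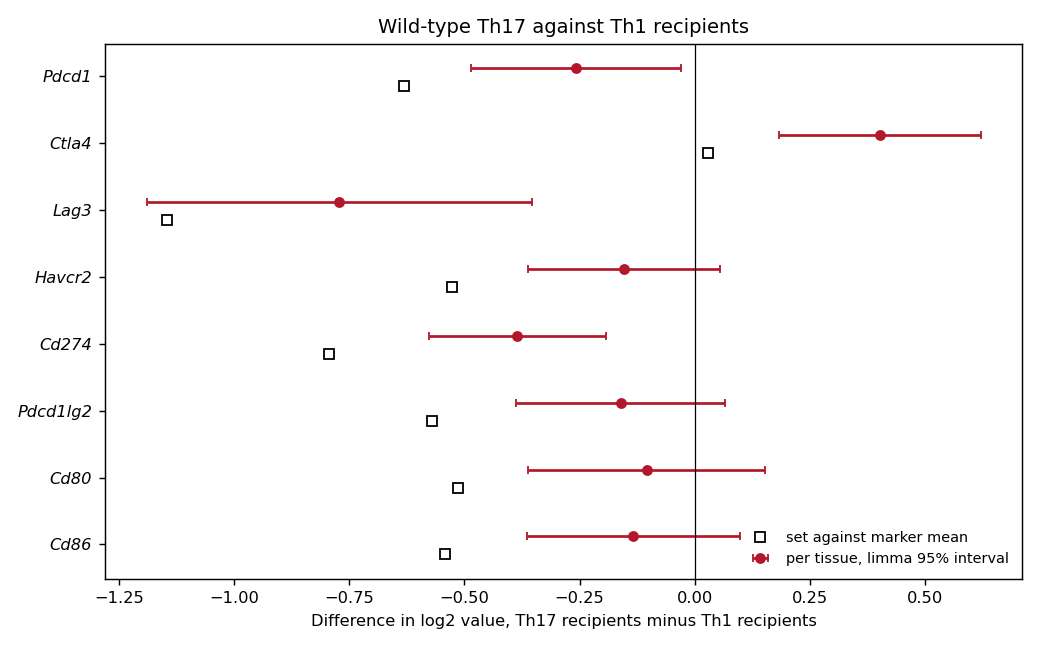
Difference in log2 value between wild-type Th17 and Th1 recipients on the x axis, for the 8 genes down the page. Filled points are values per tissue with 95% limma intervals, and open squares are values relative to the marker mean of the same array; Lag3 lies at −0.77 per tissue and −1.15 relative to markers.

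In mice labelled Act1 KO, none of the 8 genes was called after Th17 transfer. Between Act1 KO Th17 recipients and naive Act1 KO mice limma called 0 of the 8, with 1 (Cd80) at an unadjusted p under 0.05 and 0 by the methods' t-test or the exact Mann-Whitney test. Of all genes 0 percent were called. Cd274 stood at 3.37, 3.36, 3.79 and 3.69 in Act1 KO Th17 recipients, against 3.58, 3.45, 3.57, 3.54 and 3.66 in naive Act1 KO mice, a difference of −0.01 with a 95% interval of −0.21 to 0.19. Cd86 stood at 2.99, 3.12, 2.85 and 2.78 in Act1 KO Th17 recipients, against 3.02, 2.99, 2.82, 3.28 and 2.83 in naive Act1 KO mice (−0.05, −0.30 to 0.19). Havcr2 stood at 3.08, 3.27, 3.22 and 3.15 in Act1 KO Th17 recipients, against 3.23, 3.08, 2.88, 3.38 and 3.10 in naive Act1 KO mice (0.05, −0.17 to 0.27). These values lay in the range of the naive mice or close to it. Lag3 lay between 2.85 and 3.45 in Act1 KO Th17 recipients, against 2.92 to 3.28 in naive Act1 KO mice, and Pdcd1 between 2.75 and 3.19, against 2.87 to 3.40 in naive Act1 KO mice. Ctla4 differed by 0.07 (−0.16 to 0.31), Pdcd1lg2 by 0.002 (−0.24 to 0.24) and Cd80 by −0.27 (−0.55 to −0.001). The groups overlapped for all 8 genes, and 1.50% of all genes did not overlap.

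Act1 KO Th17 recipients were lower than wild-type Th17 recipients for 8 of 8 genes, against 42.2% of all genes called, 24.6% higher and 17.6% lower. Median centring called 65.9% of all genes higher and 12.1% lower, ribosomal centring 72.9% higher and 10.5% lower, and 6 of the 8 genes were lower with either. Cd274 differed by −4.98 (standard error 0.10, limma adjusted p = 7.32e-24), Cd86 by −3.33, Havcr2 by −2.48, Lag3 by −1.15, Ctla4 by −0.74, Pdcd1lg2 by −0.69, Pdcd1 by −0.49 and Cd80 by −0.46 (limma adjusted p = 0.00636 for Cd80, the largest of the 8). The arrays overlapped for Cd80 only, with 34.3% of all genes free of overlap. The Cd80 call was lost by the methods' t-test (adjusted p = 0.0945 by that tool across all genes) and the exact Mann-Whitney test (unadjusted p = 0.111) and, with that of Pdcd1, under median centring (−0.19 for Cd80 and −0.23 for Pdcd1) and ribosomal centring (−0.09 and −0.13). In plate row E, which alone has arrays of both, all 8 were lower, from −0.28 for Pdcd1lg2 to −4.64 for Cd274. In Act1 KO Th17 recipients the T cell marker mean lay between 2.97 and 3.18 and the monocyte and macrophage mean between 3.24 and 3.38. In wild-type Th17 recipients the same means lay between 5.92 and 6.16 and between 7.92 and 8.28. In naive Act1 KO mice they lay between 2.88 and 3.09 and between 3.32 and 3.37. The part of these markers in the difference was not tested.

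Whether the response to Th17 cells depended on genotype was tested as an interaction, and 8 of 8 genes were called, all lower in Act1 KO mice, against 32.0% of all genes called, 18.2% higher and 13.8% lower. With median centring 43.1% of all genes were called higher and 10.2% lower, with 6 of the 8 genes lower, and with ribosomal centring 54.6% and 8.87%, with 4 of the 8 lower. It uses the same Th17 recipients as the comparison above. The interaction was −5.11 for Cd274 (standard error 0.14, limma adjusted p = 1.12e-20), −3.35 for Cd86, −2.50 for Havcr2 and −1.17 for Lag3. These 4 passed in all 32 alternatives fitted. The 32 include a filter on dim genes, which these 4 passed through wild-type recipients alone, so its outcome was fixed and supports nothing. For Pdcd1 (−0.57), Ctla4 (−0.68), Pdcd1lg2 (−0.68) and Cd80 (−0.58) the call was lost with ribosomal centring, and for Pdcd1 and Cd80 with median centring too. With the plate row as a factor it was lost for Pdcd1, Pdcd1lg2 and Cd80.

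Between naive Act1 KO and naive wild-type mice no call was made (limma 0 of 8, also 0 at an unadjusted p under 0.05 and 0 by the methods' t-test and the exact Mann-Whitney test), where 0.585% of all genes were called and 1.76% did not overlap. The largest difference was 0.13 for Cd274 (95% interval −0.06 to 0.32). Means of the 8 lay between 2.45 and 3.56 in naive Act1 KO mice and between 2.50 and 3.43 in naive wild-type mice, at or under the array medians in both.

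Of 13 other inhibitory receptors, 10 were higher in Th17 recipients (median 1.14) and 11 in Th1 recipients (median 1.51) than in naive mice, against 18.0% and 16.7% of all genes, and 0 were lower. In this list 0 were called between Th17 and Th1 recipients. At an unadjusted p under 0.05 it held 6, against 2051 of all 17097 genes. Cd5, a brake on T cell receptor signalling, stood at 2.19 and 1.67, Sirpa, the myeloid receptor of CD47, at 1.03 and 1.31, and Vsir, which encodes VISTA, at 1.14 and 1.51, with the value of Th17 recipients before that of Th1 recipients. Between Th17 and Th1 recipients Cd5 stood at 0.525 and was not called. Without Th1 recipient 1 it was called higher in Th17 recipients (0.71, limma adjusted p = 0.00691). Against naive mice Cd160 and Ceacam1 were called in neither kind of recipient. Lilrb4a, an inhibitory receptor of myeloid cells named after its values were seen, differed by 7.55 in Th17 and 7.35 in Th1 recipients. In Act1 KO Th17 recipients 0 of the 13 were called against naive Act1 KO mice, with 0 at an unadjusted p under 0.05.

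Of 11 other checkpoint ligands, 8 were higher in Th17 recipients and 7 in Th1 recipients (medians 0.35 and 0.30) than in naive wild-type mice. Of all genes 18.0% and 16.7% were called higher. Between the recipients 1 was called: Cd200, a ligand that quiets myeloid cells, was higher in Th17 recipients (0.26, limma adjusted p = 0.0498). Without Th1 recipients 4 and 5 it was not called (0.26, limma adjusted p = 0.210), nor without any single array of either group other than Th17 recipients 1 and 4 (0.23 to 0.27). Icosl, the ligand of ICOS, stood at −0.47 (limma adjusted p = 0.0530) and Pvr, the poliovirus receptor bound by TIGIT and CD226, at 0.28, and neither was called. Of 12 costimulatory genes, 7 were higher in Th17 and 9 in Th1 recipients (medians 1.76 and 1.10), against the same shares of all genes. Icos, a costimulator of activated T cells, stood at 5.33, 5.77, 5.41, 4.91 and 5.73 in Th17 recipients, against 4.73, 3.94, 4.20, 4.61 and 4.14 in Th1 recipients. The groups did not overlap (1.11, standard error 0.15, limma adjusted p = 2.48e-05). Tnfsf9, the 4-1BB ligand, was also higher (0.99, limma adjusted p = 0.00144), and Cd28 stood at 0.52 (limma adjusted p = 0.0718). Icos (1.14) and Tnfsf9 (0.90) were also called without Th1 recipients 4 and 5. Icosl was called without Th17 recipient 3 (−0.54) or Th1 recipient 1 (−0.54), and Cd28 without Th17 recipient 4 (0.61) or 5 (0.61) or Th1 recipient 1 (0.61) or 2 (0.65).

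Transcription factors tied to T cell activation and exhaustion were higher in 6 of 9 cases in Th17 recipients and 5 of 9 in Th1 recipients. Of all genes 18.0% and 16.7% were called higher than in naive wild-type mice, and 25.5% and 24.1% lower. Batf (0.63, limma adjusted p = 0.00237) and Irf4 (0.40, limma adjusted p = 0.0217), partners at composite DNA elements in activated T cells, were both called higher in Th17 recipients than in Th1 recipients, and Nfatc1 stood at −0.35 and was not called. Without Th1 recipients 4 and 5 neither Batf (0.49, limma adjusted p = 0.0615) nor Irf4 (0.30, limma adjusted p = 0.239) was called, and Nfatc1 was called lower (−0.52, limma adjusted p = 0.0419). Irf4 was also not called without Th17 recipient 1 (0.39) or 5 (0.32) or Th1 recipient 4 (0.32), and Nfatc1 was called without Th17 recipient 3 (−0.47) or Th1 recipient 5 (−0.46). Of 5 regulatory T cell genes 2 were higher in Th17 recipients, Ikzf2 (0.43) and Il2ra (0.39), and 2 in Th1 recipients, Ikzf2 (0.68) and Itgae (0.47), and Foxp3, their lineage factor, was called in neither. Beside these shares, 2 of 5 is not read as a result about the regulatory T cell list. Of 8 genes of checkpoint signalling, 6 were higher and 1 lower in Th17 recipients, and 7 higher and 1 lower in Th1 recipients. Ptpn6, the SHP-1 phosphatase, was higher by 4.80 in Th17 and 5.15 in Th1 recipients. Ptpn11, the SHP-2 phosphatase recruited by PD-1, was lower, at −0.23 in Th17 and −0.26 in Th1 recipients. Between the recipients limma called 0 of the 5 regulatory T cell genes and 0 of the 8 signalling genes, against 0 and 3 before adjustment. Ptpn6 was called lower in Th17 recipients without Th1 recipient 2 (−0.46). Pag1, also of the signalling list, was called lower without Th17 recipient 1 (−0.62) or Th1 recipient 1 (−0.60) or 5 (−0.61).

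Along the route from IFN-γ to PD-L1, 6 of 7 genes were higher in either kind of recipient (medians 1.13 and 1.15), and Jak1 was called in neither. Of all genes 18.0% were called higher in Th17 and 16.7% in Th1 recipients. Ifng stood at 3.83, 4.22, 3.35, 4.02 and 4.19 in wild-type Th17 recipients and 4.38, 3.83, 3.93, 4.11 and 4.31 in Th1 recipients, against 2.80, 2.72, 2.53, 2.41 and 2.55 in naive wild-type mice. The recipients overlapped, and Ifng was called between neither Th17 and Th1 recipients (−0.19, limma adjusted p = 0.666) nor Act1 KO Th17 recipients and naive Act1 KO mice (−0.08). Jak2 differed by 0.26 and Ifngr2 by −0.10 between Th17 and Th1 recipients, and limma called 0 of the 7 genes, also 0 before adjustment at p under 0.05 and 0 without Th1 recipients 4 and 5.

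**Figure D5:**
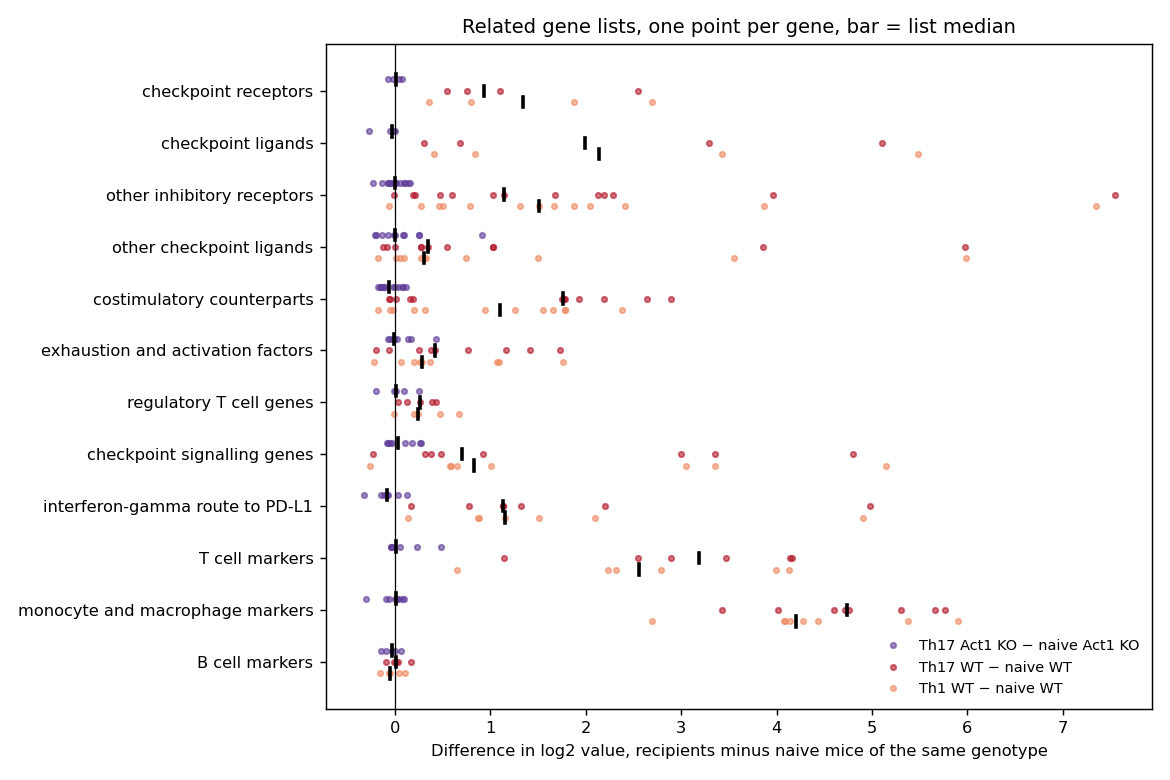
Differences in log2 value between recipients and naive mice of the same genotype on the x axis, for 12 gene lists down the page, with 1 point per gene and a bar at the list median. Wild-type recipients shift right for T cell and for monocyte and macrophage markers, with medians of 3.19 and 4.74 for Th17 cells, and not for B cell markers at 0.01, while Act1 KO Th17 recipients stay near 0.

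B cell markers, whose cells also carry CD80 and CD86, were called in 0 of 5 cases in either kind of wild-type recipient (limma, also 0 before adjustment). Their mean lay between 2.67 and 2.87 in Th17 recipients and between 2.61 and 2.82 in Th1 recipients, against 2.70 to 2.81 in naive wild-type mice.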

How the data were processed

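Spinal cord RNA of 24 mice was hybridized to Affymetrix HT-MG-430PM arrays. The authors deposited log2 expression values for 45118 probe sets, summarised by RMA, which corrects the background and brings arrays to a common distribution; its version is not given in the sources used here. Gene symbols came from the platform annotation, in which 551 probe sets have several symbols and 15669 are not listed, and neither were used. The probe set with the highest mean over the 24 arrays represented each of 17097 genes. limma 3.58.1 (R 4.3.3) was fitted to all groups together with lmFit and eBayes, two-sided, with Benjamini-Hochberg adjustment over all genes and calls at an adjusted p under 0.05. The fit was tested on simulated data. Mice are separate animals by the labels, so a p-value rests on variation among mice, and the number of arrays limits the precision. Members and gene lists were chosen with earlier results of these data known. All members are named; of each other list, up to 3 genes with the smallest adjusted p between Th17 and Th1 recipients and up to 2 that went against the list are named. Lilrb4a, Ifng, Jak1, Foxp3, Cd8a, Cd8b1, the Cd3 genes and the microglia, spinal cord and NK genes were named after their values were seen. Likeness was Pearson's r over 24 arrays. Alternatives covered the probe set rule, a filter at a level of 4 in at least 4 arrays, 2 scalings, variance models, plate position, the replicate block, left-out arrays, and the methods' t-test and Mann-Whitney test. List genes were also fitted without single arrays and without Th1 recipients 4 and 5, an alternative chosen after seeing the data. A second promoter motif was searched and is not reported here.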

Additional observations from a re-analysis of the deposited data

Results flagged for a closer look

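The response to Th17 cells differed between genotypes in a test of the difference itself (limma interaction, Act1 KO minus wild-type response, log2 scale). It was −0.57 for Pdcd1, −0.68 for Ctla4, −1.17 for Lag3, −2.50 for Havcr2, −5.11 for Cd274, −0.68 for Pdcd1lg2, −0.58 for Cd80 and −3.35 for Cd86, with the largest adjusted p at 0.0149 for Cd80. The wild-type response was called upward for 7 of the 8 and not called for Cd80 (0.31, limma adjusted p = 0.0504), whose direction depended on the probe set and scaling, and the Act1 KO response lay between −0.27 for Cd80 and 0.07 for Ctla4.

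Of 40 sets of arrays, 1 per gene and group, 0 held an array far from the others by Dixon's ratio, where chance marks about 1 in 20.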

How the results depend on the processing

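Counts of called checkpoint genes depended on the setting mainly between Th17 and Th1 recipients. There the 3 calls became 1 with arrays centred on ribosomal protein genes, and 0 when the fit held the compared groups alone, without both Th1 recipients 4 and 5, by the methods' t-test after adjustment, by the adjusted exact Mann-Whitney test and with a 2-fold threshold added. Of all 17097 genes these settings called 480, 282, 320, 69, 0 and 88, in that order, so the last 3 say little about the 8 genes. Leaving out 1 array gave 0 to 3 there, with 1 without Th17 replicate 3 or Th1 replicate 4 and 0 without Th1 replicate 5, 7 to 8 between Th17 recipients and naive mice, and 5 to 7 for the values relative to markers; it left the other counts as they were. A filter on dim genes kept only 4 of the 8 genes, which passed it through wild-type recipients alone, so their calls against the other groups were fixed by it and support nothing: 4 were called in Th17 recipients, 4 in Th1 recipients, 4 between Act1 KO and wild-type Th17 recipients and 4 for the interaction. Of the genes it kept, the filter called 6803, 6502, 6638 and 5340 in the same order. A 2-fold threshold also gave 4 in each of these, and called 1648, 1400, 1607 and 1701 of all 17097 genes. The interaction gave 4 with ribosomal centring, where 63.5% of all genes were called and 8.87% called lower. It gave 5 with the plate row as a factor, where 3973 of all genes were called. Ribosomal centring used 66 genes, moved the median of all genes by −0.42 in Th17 and −0.47 in Th1 recipients against naive mice, and turned the Th1 values of Ctla4 to −0.12 and of Cd80 to −0.063. Centring on array medians moved it by −0.26 and −0.25. The plate column could not be fitted for Th1 comparisons, since Th1 arrays share no column with other groups. The cause of these changes was not tested.

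The labels do not say whether same-numbered mice share more than a number. Over 46 same-numbered pairs of arrays, deviations from group means correlated between −0.29 and 0.44, and 16 pairs were over 0.1. With the replicate block, 8 genes were called in Th17 recipients, 8 in Th1 recipients, 3 between them, 0 in Act1 KO Th17 recipients against naive Act1 KO mice, 0 between naive genotypes, 8 between Act1 KO and wild-type Th17 recipients and 8 for the interaction. Of all 17097 genes the fit with the block called 7498, 7094, 553, 1, 108, 7306 and 5603, in the same order. The block added Cd80 in Th17 recipients (limma adjusted p = 0.0385).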

Other observations

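The genes whose levels ran closest to a checkpoint gene over the 24 arrays, by Pearson's r, are given as a description. The arrays share the split between wild-type recipients and the other groups and are not independent points. For Cd274 these were Cxcl9 (0.998), Iigp1 (0.998) and Cfb (0.997), for Cd86 Psmb9 (0.997), Nlrc5 (0.996) and Cd3d (0.996), and for Havcr2 Ctsw (0.995), Ctsh (0.994) and Psmb9 (0.994). The dim members gave lower values, with Lag3 closest to H3c1 (0.952), Lyl1 (0.940) and Gdf3 (0.936), Pdcd1 to Eif3e (0.950), Tspan32 (0.936) and Lipa (0.936), and Pdcd1lg2 to Mmp12 (0.949), Ccl1 (0.942) and Cd36 (0.941). Ctla4 was closest to Htr2b (0.948), Wfdc21 (0.944) and Adamts1 (0.929), and Cd80 to Fuca2 (0.807), Helb (0.779) and Rps20 (0.774).

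Among antigen-presenting cell genes outside the checkpoint lists, Itgax, an integrin of dendritic cells and macrophages, was lower in Th17 than in Th1 recipients (−1.48, standard error 0.14, limma adjusted p = 7.81e-08), and Flt3, a receptor of dendritic cell precursors, was lower than in naive wild-type mice in both Th17 (−0.89) and Th1 recipients (−0.84). Of 5 dendritic cell markers 1 was higher and 1 lower in either kind of recipient than in naive wild-type mice. Of all genes 18.0% were higher and 25.5% lower in Th17 recipients, and 16.7% and 24.1% in Th1 recipients. Of 4 neutrophil markers, 4 were called higher in Th17 recipients, with S100a9 at 3.95, S100a8 at 2.23 and Mmp8 at 2.43 above Th1 recipients. Without Th1 recipients 4 and 5, whose Mmp8 was low (3.41 and 3.18, against 5.62 to 5.87 in the other 3), all 4 were called and Mmp8 stood at 1.46 and S100a8 at 1.88. Of 4 microglia markers, 3 were lower and 1 higher in Th17 recipients than in naive wild-type mice, with P2ry12 at −0.89 and Tmem119 at 1.96. Of 6 markers of spinal cord cells 4 were lower and 1 higher in either kind of recipient, with the neuronal Snap25 at −0.77 and the astrocyte gene Gfap at 0.59 in Th17 recipients. Of 6 CD8 and NK cell markers 4 were higher in either kind of recipient: Cd8a, Cd8b1, Klrd1 and Klrk1. Ncr1 and Klrb1c, which mark NK cells, were called in neither. Klrd1 lay between 4.47 and 5.95 in Th17 and between 4.84 and 5.64 in Th1 recipients, against 2.52 to 2.72 in naive wild-type mice. Klrk1 lay between 4.29 and 4.61 in Th17 and between 3.89 and 4.72 in Th1 recipients, against 2.83 to 3.12. The NK genes of this list thus did not move together.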
